A study of Rattus norvegicus with 4 samples.

Results

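Interferon-stimulated genes are genes that cells turn on when an interferon binds its receptor. A list of 38 genes under this name, given by symbol, was followed here through 4 rat microvessel libraries. The list also holds the receptor chain genes Ifnar1 and Ifnar2, which are counted among the members throughout. Of the 38, 37 had a row in the count table and 33 reached a level of 1 CPM, reads scaled to library size, in at least 1 library, out of 23608 gene entries of which 13634 reached that minimum. Xaf1 was not analysed here. The libraries came from wild-type primary rat vascular cells taken from subcutaneous soft connective tissue and grown as microvessels. The 4 groups were a soft matrix, a soft matrix with A83-01, a stiff matrix, and a stiff matrix with A83-01, with 1 library in each. A83-01 blocks the kinase activity of type I receptors for transforming growth factor beta (TGF-beta). Its dose, the matrix stiffness, the culture time, and the strain and age of the rats are not given in the labels used here. The study asked how stiffness and the inhibitor act on microvessels and on the passage of pericytes to myofibroblasts.

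Type I interferons bind a receptor made of the Ifnar1 and Ifnar2 chains, whose kinases Jak1 and Tyk2 phosphorylate transcription factors such as Stat2. Stat2 and Irf9 are part of a complex that binds the interferon-stimulated response element (ISRE) in promoters, while interferon gamma acts at the gamma-activated sequence (GAS). Many of the induced proteins block viral entry, translation or replication, sense viral RNA, or damp the response itself. Fibroblasts, endothelial cells and pericytes all carry this pathway, and leukocytes are a common source of interferon in tissue.

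Levels below are CPM scaled by trimmed mean of M-values (TMM) and are always given in the order soft, soft with A83-01, stiff, stiff with A83-01. Because each group had 1 library, a fold compares a pair of libraries, not conditions, and has no replicate check. Its 95% interval, in parentheses, is an exact binomial (Clopper-Pearson) interval on the counts and covers counting error only, since PCR reads without molecular identifiers are not independent molecules. A gene was called at least 2-fold apart when the ratio of CPM reached 2 and this interval did not include 1. Log2 ratios were taken after a prior count of 2 was added. In bulk RNA, fewer cells of a type and less RNA per cell cannot be told apart, and stiffness cannot be told apart from any separate preparation of the stiff and soft libraries.

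The libraries held between 32271844 and 33416200 counts, so the floor of 3 counts lay between 0.0842 and 0.103 CPM. The members with a row took 0.138%, 0.165%, 0.0905% and 0.154% of all counts. Ifitm3 alone had 24022, 29773, 14907 and 22656 counts, by far the most of any member, so this share leans on that gene. The stiff library stood apart in composition: its TMM factor was 0.876 against 1.03 to 1.07 in the others, and Col1a1, a fibrillar collagen gene, took 6.09% of its counts against 1.82% to 4.05% elsewhere. Endothelial, pericyte and fibroblast marker genes were all detected, with summed levels given below, whereas 5 of the 6 epithelial markers, Epcam, Krt5, Krt14, Krt18 and Cdh1, were at 0 in all 4 libraries.

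On stiff matrix the interferon-stimulated genes were higher in the library with A83-01. At least 2-fold higher levels were found for 18 of the 33 members that reached the minimum and 0 were lower, where 7.94% of all genes tested were higher and 4.6% lower. Among them were the ISG15-removing protease Usp18 (7.34-fold), the antiviral enzyme Rsad2 (6.65-fold), the GTPase Mx2 (5.11-fold) and the guanylate-binding protein Gbp2 (3.64-fold). On soft matrix A83-01 went with at least 2-fold higher levels of 5 of the 33 and lower levels of 0, where 2.33% of all genes were higher and 2.57% lower. Without inhibitor, 8 of the 33 were at least 2-fold lower on stiff than on soft matrix and 0 were higher, where 8.8% of all genes were lower and 5.46% higher. Stiff with A83-01 and soft with A83-01 were closer, with 2 members higher and 2 lower, against 7.02% and 6.9% of all genes. The stiff library serves in both the first and the third of these comparisons, so they are not separate evidence.

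The minimum bears on these counts. Mx2, Oas1a, Rsad2 and Cmpk2 reached 1 CPM in A83-01 libraries alone, and Oas1a and Ifi44l in soft libraries alone, so they had to differ to be tested. Of the members at least 2-fold lower in stiff than in soft, only Irf7 and Rtp4 reached 1 CPM in the stiff library. Ifit3, Oas1a, Oasl, Usp18, Ifi44l and Herc6 lay below it there, so they were tested through libraries where they were higher. In all 4 libraries 24 members reached the minimum. With the minimum set on the mean of the libraries, an alternative added after seeing the data, 15 of 30 members were at least 2-fold higher with A83-01 on stiff matrix, against 7.2% of all genes. At a minimum of 5 CPM these were 10 of 23, against 6.15%. For lower levels in stiff than in soft, the minimum on the mean gave 6 of 30, against 7.77% of all genes. The minimum of 5 CPM gave 3 of 23, against 6.48%. The 4 members below the minimum were Ifit1 with 23, 26, 9 and 32 counts, Mx1 with 9, 14, 12 and 15 counts, Gbp4 with 10, 19, 0 and 14 counts, and Oas2 with 0 counts in every library.

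**Figure D1:**
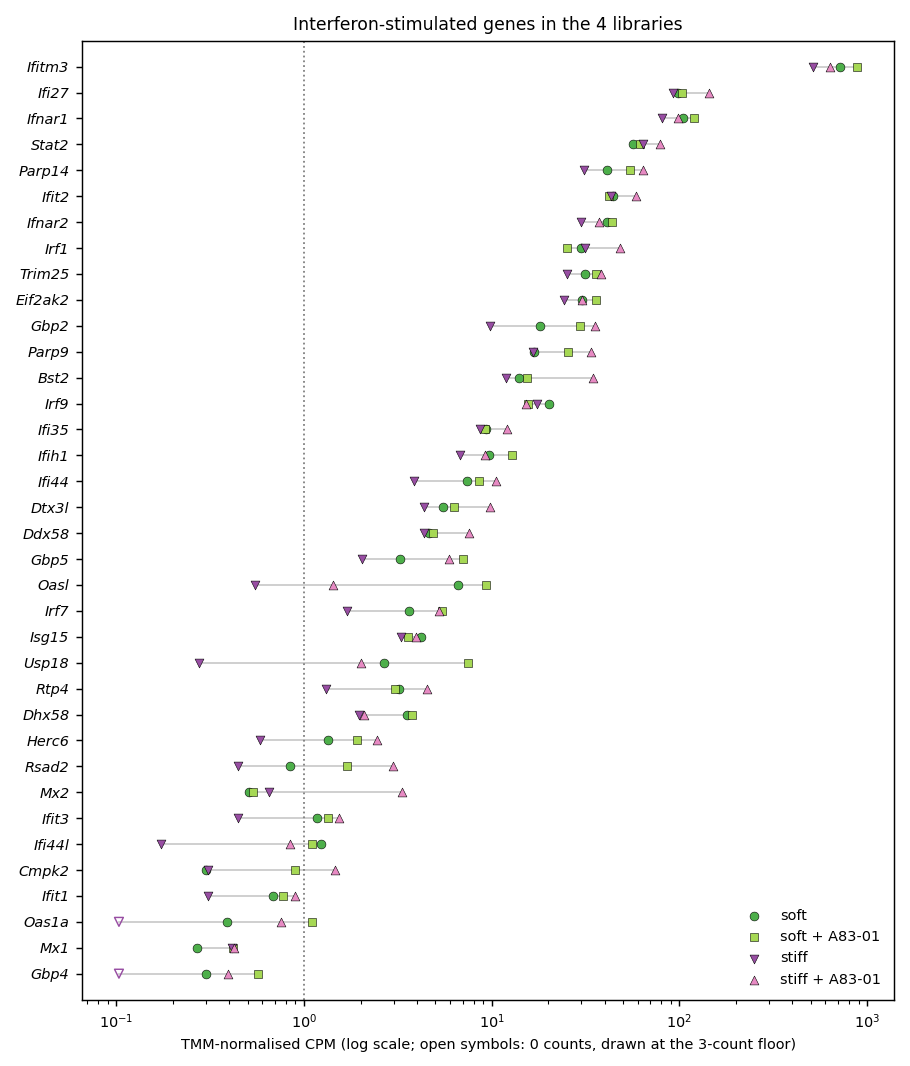
TMM-normalised CPM (x, log axis) of each member with counts, 1 row per gene, in the soft (circle), soft with A83-01 (square), stiff (downward triangle) and stiff with A83-01 (upward triangle) library; open symbols mark 0 counts, drawn at the floor of 3 counts, and the dotted line is the minimum of 1 CPM. For 27 of the 33 members that reached the minimum the stiff library holds the lowest point, and Oasl and Usp18 span the widest ranges.

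Many interferon-stimulated genes are read through short promoter elements, so the sequences before the start sites of 6 members are shown, 3 with an ISRE-type run close to the start, 2 with one further upstream, and 1 without. These 6 were chosen after their values were seen. RefSeq promoter windows (assembly GRCr8, 250 bases before to 50 after the start) were found by symbol for 28 of the 37 members. Each line gives the 160 bases before the start, 5′ to 3′ on the gene's strand, and capitals mark matches to GAAANNGAAA on either strand.
Ifit3: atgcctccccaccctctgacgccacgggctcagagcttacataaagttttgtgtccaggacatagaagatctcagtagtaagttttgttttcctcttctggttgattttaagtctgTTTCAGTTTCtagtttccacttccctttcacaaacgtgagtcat
Gbp2: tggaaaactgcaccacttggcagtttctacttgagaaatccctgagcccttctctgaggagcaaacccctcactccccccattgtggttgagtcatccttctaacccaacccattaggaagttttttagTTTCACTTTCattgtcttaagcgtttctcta
Ifi44: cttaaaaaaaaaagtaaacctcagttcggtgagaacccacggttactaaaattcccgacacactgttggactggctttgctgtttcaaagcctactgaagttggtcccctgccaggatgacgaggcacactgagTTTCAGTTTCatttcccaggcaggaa
Rsad2: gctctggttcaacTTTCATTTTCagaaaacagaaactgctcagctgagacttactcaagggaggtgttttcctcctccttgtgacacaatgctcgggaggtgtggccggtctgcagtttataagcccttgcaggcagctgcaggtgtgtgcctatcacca
Bst2: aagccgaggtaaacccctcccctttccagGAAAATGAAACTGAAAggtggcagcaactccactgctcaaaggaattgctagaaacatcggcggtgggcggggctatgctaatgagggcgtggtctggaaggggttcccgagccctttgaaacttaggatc
Oasl: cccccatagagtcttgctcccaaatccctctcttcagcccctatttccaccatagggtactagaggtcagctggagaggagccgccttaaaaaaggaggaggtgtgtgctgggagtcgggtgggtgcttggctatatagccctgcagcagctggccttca
The stretches lie at chr1:241527166-241527325 on the plus strand for Ifit3, chr2:234005567-234005726 on the plus strand for Gbp2 and chr2:243303841-243304000 on the minus strand for Ifi44. Those of the others, all on the minus strand, are chr6:48788121-48788280 for Rsad2, chr16:18254968-18255127 for Bst2 and chr12:47356293-47356452 for Oasl.

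The ISRE-type run lay 44 to 35 bases before the start in Ifit3, 31 to 22 in Gbp2, 26 to 17 in Ifi44 and 147 to 138 in Rsad2, each time on the strand opposite to the gene. The Ifi44 window held another one past the start. Bst2 held a pair of overlapping runs on its own strand, at 131 to 122 and 125 to 116 bases. Oasl had none in its window. Across the members with a window, 16 of 28 (57.1%) held the run on either strand, against 1312 of 33469 windows of the same length in the table (3.92%). A GAS-type run, TTCNNNGAA, was found in 8 of 28 (28.6%) against 2970 of all windows (8.87%), and 5 members held both. The windows of the receptor genes Ifnar1 and Ifnar2 held no ISRE-type run. A match is a description of letters and not a bound site.

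Members with and without the run are set side by side as a description, beside all genes, of which 7.94% were higher with A83-01 on stiff matrix, 2.33% were higher with it on soft matrix and 8.8% were lower in stiff than in soft. With A83-01 on stiff matrix, 11 of 15 measured members whose window held the run were at least 2-fold higher, with a median log2 ratio of 1.52. Among the 11 whose window did not hold it, 4 were at least 2-fold higher and the median log2 ratio was 0.60. On soft matrix the corresponding counts were 3 of 15 and 1 of 11, with medians of 0.31 and 0.18. Stiff against soft gave 4 lower of 15 with a median of -0.65, and 2 lower of 11 with a median of -0.21. Oas1a and Rsad2, with the run, and Cmpk2, without it, reached the minimum in A83-01 libraries alone. Oas1a and Ifi44l, with the run, reached it in soft libraries alone. Ifit3, with the run, and Oasl and Herc6, without it, were below the minimum in the stiff library. These members had to differ between libraries to be counted here.

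The receptor chains differed little between libraries. Ifnar1 stood at 105, 119, 80.5 and 98.5 CPM. It was 1.31-fold lower (1.24 to 1.38) on stiff than on soft matrix without inhibitor. Ifnar2 stood at 40.9, 43.8, 29.8 and 37.4 CPM and was 1.37-fold lower (1.26 to 1.498) in the same pair. Both were lowest in the stiff library, and the folds with A83-01 on stiff matrix were 1.22 (1.16 to 1.29) for Ifnar1 and 1.25 (1.15 to 1.37) for Ifnar2. Neither reached 2-fold in any of the 4 pairs.

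Among the transcription factors, Irf7 stood apart from the others. Irf7 amplifies type I interferon production and stood at 3.61, 5.43, 1.69 and 5.25 CPM. Its level in the stiff library was 2.14-fold lower (1.53 to 3.05) than in soft, and A83-01 on stiff matrix went with a 3.11-fold higher level (2.26 to 4.35). Stat2, a subunit of the ISRE-binding complex, stood at 56.6, 62.0, 63.6 and 78.7 CPM. Irf9, the DNA-binding subunit of that complex, stood at 20.2, 15.6, 17.5 and 15.3 CPM. With A83-01, Irf9 was 1.30-fold lower (1.15 to 1.46) on soft matrix. On stiff matrix it was 1.14-fold lower (1.01 to 1.29) with TMM scaling, a direction that turned with total counts (log2 ratio 0.09) and FPKM (0.10). Irf1, a factor induced chiefly by interferon gamma, stood at 30.0, 25.2, 31.5 and 48.3 CPM, which was 1.19-fold lower (1.08 to 1.30) with A83-01 on soft and 1.53-fold higher (1.41 to 1.66) with it on stiff matrix.

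Of the 13 listed antiviral effectors 10 were measured, and 7 of these were at least 2-fold higher with A83-01 on stiff matrix, with a median log2 ratio of 1.59, where 7.94% of all genes were higher. Of these 7, Mx2, Oas1a, Rsad2 and Cmpk2 reached the minimum in A83-01 libraries alone and so had to be high there to be counted. Ifit3 and Oasl were below it in the stiff library, so other libraries had to be higher for them to be counted. Rsad2 (viperin), which makes a chain-terminating nucleotide, stood at 0.837, 1.70, 0.447 and 2.97 CPM. These are 28, 57, 13 and 106 counts, and both A83-01 libraries lie above both without it. The Rsad2 level with A83-01 was 6.65-fold higher (3.73 to 12.9) on stiff and 2.03-fold higher (1.27 to 3.32) on soft matrix. Cmpk2, a mitochondrial nucleotide kinase whose start lies 14.73 kb from that of Rsad2 on the opposite strand, stood at 0.299, 0.895, 0.310 and 1.46 CPM. It too was higher in both A83-01 libraries, by 4.71-fold (2.30 to 10.9) on stiff and 3.00-fold (1.43 to 6.87) on soft matrix.

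Mx2 behaved otherwise, in that its level was high in 1 library. Mx2, a dynamin-like GTPase, stood at 0.508, 0.537, 0.654 and 3.34 CPM, from 17, 18, 19 and 119 counts. The stiff library with A83-01 was 5.11-fold higher (3.13 to 8.78) than stiff and 6.21-fold higher (3.77 to 10.8) than soft with A83-01. Bst2 (tetherin), which holds budding virions at the cell surface, followed the same form at 13.9, 15.4, 11.9 and 34.6 CPM. Its fold with A83-01 was 2.90 (2.57 to 3.27) on stiff matrix, whereas the soft libraries differed by 1.11-fold (0.974 to 1.26). Ifit3, an adaptor of the complex that binds viral RNA, stood at 1.17, 1.34, 0.447 and 1.54 CPM. There the stiff library was low and the other libraries lay between 1.17 and 1.54 CPM, with a 3.45-fold (1.86 to 6.88) ratio between stiff with and without A83-01.

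The oligoadenylate synthetase family holds the member with the largest fold between matrices among those measured, Oasl. Oasl, an oligoadenylate synthetase-like protein that aids RNA sensing, stood at 6.63, 9.28, 0.550 and 1.43 CPM, from 222, 311, 16 and 51 counts. Both stiff libraries lay below both soft ones. The level was 12.05-fold lower (7.26 to 21.4) on stiff than on soft matrix without inhibitor and 6.49-fold lower (4.81 to 8.90) with A83-01 in both. Oas1a, which makes the second messenger that turns on RNase L, had 13, 37, 0 and 27 counts. Set against the floor of 3 counts in the stiff library, its level was at least 3.76-fold lower there than in soft and at least 7.34-fold higher in stiff with A83-01, and the lower limits of the counting intervals were 2.65 and 5.57. With A83-01 in both, stiff and soft differed by 1.46-fold (0.864 to 2.49). Reads of the Oas1 and Oasl, Ifit, Gbp, Mx and Ifitm families may be shared among near-identical copies, so these counts are uncertain.

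Ifitm3, a membrane protein that blocks viral fusion, was the most abundant member per transcript length, at 852, 1050, 514 and 783 in the deposited FPKM values, which scale fragments by transcript length and library size. Its CPM were 718, 889, 513 and 636. With TMM scaling its fold with A83-01 was 1.24 (1.21 to 1.27) on stiff and 1.24 (1.22 to 1.26) on soft matrix. With total counts the log2 ratios were 0.59 on stiff and 0.32 on soft matrix. On the same FPKM scale Ifi27 followed at 81.4 to 155, Ifnar1 at 14.3 to 25.1, Ifnar2 at 11.7 to 20.3 and Bst2 at 10.8 to 38.0. Among measured members Cmpk2 had the lowest median, at 0.0553 to 0.324 FPKM.

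The guanylate-binding proteins are GTPases that attack intracellular pathogens and respond strongly to interferon gamma. Gbp2 stood at 17.98, 29.4, 9.80 and 35.7 CPM. Both A83-01 libraries were higher, by 3.64-fold (3.20 to 4.16) on stiff and 1.64-fold (1.48 to 1.81) on soft matrix. Gbp5, which promotes inflammasome assembly, stood at 3.23, 7.01, 2.03 and 5.92 CPM. Its folds with A83-01 were 2.92 (2.18 to 3.96) on stiff and 2.17 (1.72 to 2.76) on soft matrix. The starts of Gbp2, Gbp4 and Gbp5 lie on chromosome 2 within 94.73 kb of each other on the same strand.

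Genes of the ISG15 and ubiquitin pathway divided. Usp18, which strips ISG15 from proteins and blocks signalling at Ifnar2, stood at 2.66, 7.46, 0.275 and 2.02 CPM, from 89, 250, 8 and 72 counts. It was lowest in the stiff library, 9.66-fold below soft (4.70 to 23.1), and higher with A83-01 by 7.34-fold (3.53 to 17.6) on stiff and 2.81-fold (2.19 to 3.62) on soft matrix. Isg15, the ubiquitin-like modifier itself, stood at 4.18, 3.58, 3.30 and 3.96 CPM. All its pairs had intervals that include 1, so no difference in Isg15 was detectable at this depth. Herc6, the rodent ligase for ISG15, stood at 1.34, 1.91, 0.585 and 2.44 CPM, with a 4.17-fold (2.46 to 7.49) higher level with A83-01 on stiff matrix. Trim25, a ligase for the RNA sensor Ddx58, stood at 31.2, 36.0, 25.2 and 38.3 CPM and was under 2-fold apart in each pair.

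Dtx3l, a ubiquitin ligase, and Parp9 form a complex, and their starts lie 1214 bases apart on opposite strands of chromosome 11. Dtx3l stood at 5.53, 6.27, 4.33 and 9.85 CPM, and its fold with A83-01 on stiff matrix was 2.27 (1.85 to 2.81). Parp9 stood at 16.9, 25.6, 16.7 and 33.7 CPM with a fold of 2.03 (1.82 to 2.26). Parp14, an ADP-ribosyltransferase whose start is 87.91 kb from that of Dtx3l, stood at 40.9, 54.5, 31.1 and 63.8 CPM with a fold of 2.05 (1.90 to 2.22). Parp9, Parp14 and Dtx3l were all highest in stiff with A83-01 and lowest in stiff. Parp9, on the minus strand, and Dtx3l, on the plus strand, run away from each other from these GRCr8 starts and do not overlap there. No strand-marking step is stated, so reads may not have been separated by strand.

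Of the remaining induced genes, Ifi44 and its neighbour Ifi44l have starts 24.88 kb apart on opposite strands. Ifi44, a cytoplasmic protein, stood at 7.38, 8.51, 3.85 and 10.5 CPM, and Ifi44l at 1.22, 1.10, 0.172 and 0.842 CPM. Ifi44 was 2.72-fold higher (2.20 to 3.39) with A83-01 on stiff matrix. Ifi44l rested on 41, 37, 5 and 30 counts and was 7.12-fold lower (2.82 to 23.1) on stiff than on soft matrix. Rtp4, a chaperone of receptor transport that also restrains viral replication, stood at 3.20, 3.04, 1.31 and 4.54 CPM. It was 2.45-fold lower (1.67 to 3.64) in stiff than in soft and 3.48-fold higher (2.43 to 5.09) with A83-01 on stiff matrix. The soft libraries with and without A83-01 did not differ beyond counting error for Ifi44, Ifi44l or Rtp4.

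None of the 3 RNA sensors, Ifih1, Ddx58 and Dhx58, was at least 2-fold apart in any pair. Ddx58 (RIG-I) came closest with A83-01 on stiff matrix, at 1.74-fold (1.40 to 2.17) higher. Dhx58, a regulator of the other sensors, was 1.81-fold lower on stiff than on soft matrix both without (1.31 to 2.53) and with (1.35 to 2.45) the inhibitor. The 15 measured members not called with A83-01 on stiff matrix had log2 ratios from -0.19 in Irf9 to 0.79 in Ddx58. Among them Ifi27, a mitochondrial and nuclear envelope protein, lay between 92.6 and 144 CPM. Ifit2, an RNA-binding partner of Ifit3, lay between 41.9 and 59.0 CPM. Eif2ak2, the kinase PKR that halts translation on viral RNA, lay between 24.2 and 35.8 CPM, and Ifi35 between 8.67 and 12.1 CPM. Their highest level was in stiff with A83-01 except for Eif2ak2, which was highest in soft with A83-01.

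**Figure D2:**
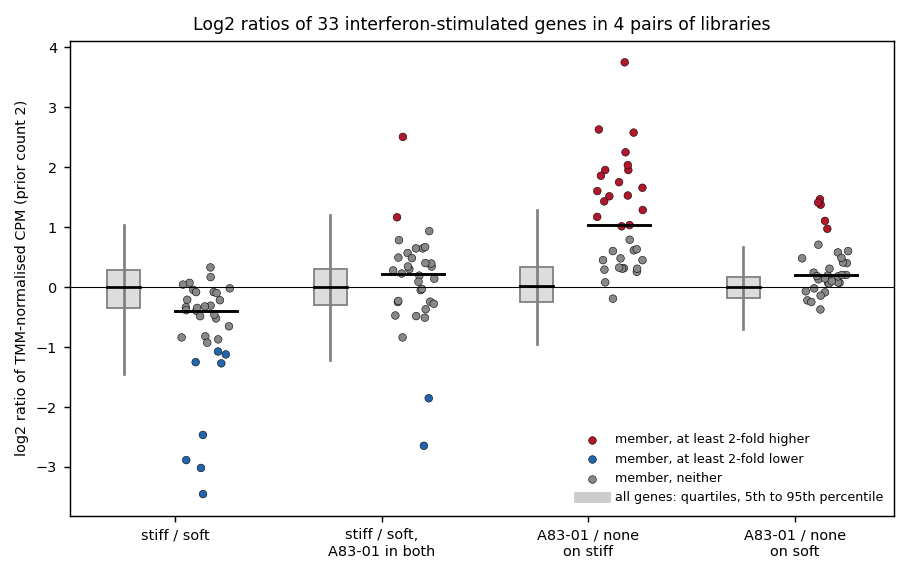
Log2 ratio of CPM (y, TMM scaling, prior count 2) in the 4 pairs of libraries (x), where points are the 33 measured members (red at least 2-fold higher, blue at least 2-fold lower, grey neither), bars their median, and boxes with lines the quartiles and the 5th to 95th percentile of all genes. With A83-01 on stiff matrix 32 members lie above 0, and in the stiff against soft pair 29 lie below 0.

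Across the measured members the median log2 ratio with A83-01 on stiff matrix was 1.04, where the median of all genes was 0.02. The ratio was above 0 in 32 of 33, all but Irf9, and in 33 with total counts, against 52.4% of all genes, and 14 members lay above the 95th percentile of all genes, a log2 ratio of 1.29. On soft matrix the median was 0.20 and 26 of 33 were above 0, against 49.6% of all genes. The median stiff against soft was -0.40 without inhibitor and 0.23 with A83-01 in both, each against a median of all genes within 0.01 of 0. The scaling moves these values. With total counts in place of TMM the median of all genes became 0.31 with A83-01 on stiff matrix, and the members' median became 1.32. The shares of all genes called then became 12.6% higher and 2.97% lower, against 19 higher and 0 lower members.

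The pattern over the 4 libraries was described after the values were seen. The stiff library held the lowest level for 27 of 33 measured members, against 31.5% of all genes. Of these, Ifit3, Oas1a, Oasl, Rsad2, Usp18, Ifi44l and Herc6 were below 1 CPM there and had to be higher elsewhere to be measured. The highest level was in stiff with A83-01 for 19 members, against 27.2%, and in soft with A83-01 for 11, against 23.9%. Both A83-01 libraries lay above both libraries without it for 16 members, against 16.7%.

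**Figure D3:**
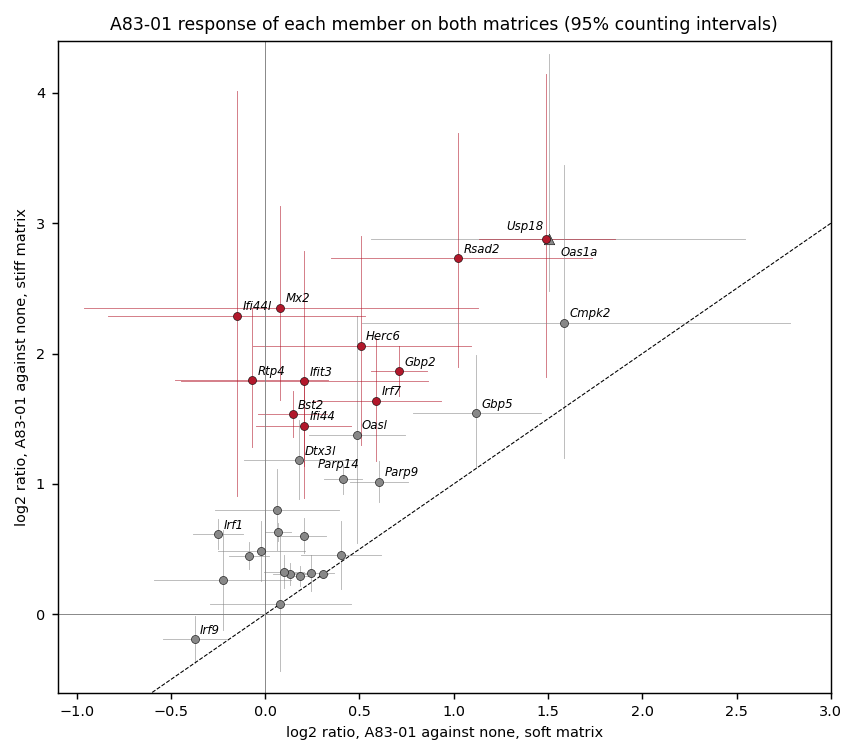
Log2 of the CPM ratio, without a prior count, with A83-01 against none on stiff matrix (y) and on soft matrix (x), 1 point per measured member with lines for 95% counting intervals and a dashed line of equal response; red marks the 11 members whose responses differ at least 2-fold, and the triangle marks Oas1a, whose y value is a lower bound. Irf1 lies left of 0 on x and above 0 on y, and Irf9 lies below 0 on both axes, on y with TMM scaling but not with total counts.

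The inhibitor response was larger on stiff than on soft matrix for many members. The difference of the log2 ratios was at least 1, with a counting interval that excludes 0, for 11 of 33 members, and in the other direction for 0. Of all genes, 5.89% had such a larger and 3.07% such a smaller response on stiff matrix. The 11 were Ifit3, Mx2, Rsad2, Irf7, Usp18, Ifi44, Ifi44l, Gbp2, Rtp4, Herc6 and Bst2. Among these, Mx2 and Rsad2 reached the minimum in A83-01 libraries alone and Ifi44l in soft libraries alone, so they had to differ to be counted. Ifit3, Usp18 and Herc6 were below it in the stiff library, so they were counted through libraries where they were higher. With the minimum on the mean of the libraries, added after seeing the data, 10 of 30 members were called, against 5.49% of all genes. The difference was 2.18 (1.01 to 3.35) for Mx2, 1.82 (1.18 to 2.46) for Rtp4, 1.38 (1.13 to 1.63) for Bst2 and 1.15 (0.91 to 1.39) for Gbp2. It was above 0 in 33 of 33 measured members, or in 31 with upper-quartile scaling or DESeq2 size factors, against 52.3% of all genes, and was below 0.01 in Dhx58 and Ifitm3. The 4 libraries leave no residual for a test of this difference. The stiff library, lowest for 27 of 33 members, enters it too, so it is not separate evidence from the library pairs.

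Tests came from a model over the 4 libraries with stiffness and inhibitor as additive terms, which leaves 1 residual degree of freedom. They used the quasi-likelihood method of edgeR, and p was adjusted by Benjamini-Hochberg with a threshold of 0.05. In it a response that depends on the other factor counts as spread. For stiffness, 1 of 33 members was lower on stiff matrix and 0 were higher, where 3.29% of all genes were lower and 2.35% higher. That member was Oasl, with a log2 difference of -3.08 (SE 0.343) and an adjusted p of 0.0204 by edgeR. Without the soft, the soft with A83-01, the stiff and the stiff with A83-01 library, the adjusted p of Oasl by edgeR was 0.497, 0.655, 0.0723 and 0.0576. Without either soft library the model called 0 of all genes for stiffness. Usp18 had a log2 difference of -2.40 (SE 0.438) and an adjusted p of 0.0521 by edgeR. At an unadjusted p under 0.05, 5 of 33 members were lower, namely Oasl, Usp18, Ifih1, Dhx58 and Ifitm3, a share near the 13.2% of all genes that were lower.

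For the inhibitor the additive model called 0 members in either direction, where 0% of all genes were called higher and 0.044% lower. At an unadjusted p under 0.05, 8 of 33 members were higher and 0 lower, where 7.25% of all genes were higher. The 8 were Rsad2, Irf7, Usp18, Gbp2, Gbp5, Parp9, Parp14 and Cmpk2, with log2 differences from 0.72 in Parp14 to 1.99 in Usp18. Rsad2 and Cmpk2 were tested only because they reached the minimum in A83-01 libraries, where they were high. DESeq2 called 2 members higher, Usp18 (adjusted p = 0.0326) and Gbp2 (adjusted p = 0.0102), against 1.61% of all genes, and limma-voom called 0. With scaling by total counts edgeR called 6, Usp18, Gbp2, Gbp5, Parp9, Parp14 and Bst2, against 4.12% of all genes. The Usp18 log2 difference of 1.99 became 4.09 without the soft library, 0.45 without soft with A83-01, 0.83 without stiff and 2.34 without stiff with A83-01, and Usp18 was called in none of these fits by edgeR.

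The rest of the pathway was taken from lists of ligands, signalling genes, sensors, negative regulators and further induced genes. All 11 interferon ligand genes with a row, among them Ifnb1 and Ifng, had 0 counts in every library, which allows up to 0.103 CPM. Of 17 measured signalling genes outside the members, 0 were at least 2-fold higher and 1, Jak2, was lower with A83-01 on stiff matrix. Of all genes, 7.94% were higher and 4.6% lower in that pair. The kinase Jak1 stood at 260, 325, 304 and 362 CPM and was under 1.3-fold apart in the inhibitor pairs. The kinase Tyk2 stood at 44.4, 41.6, 31.8 and 39.5 CPM. Of the receptor chains for interferon gamma, Ifngr1 stood at 231, 226, 127 and 199 CPM and Ifngr2 at 61.8, 67.3, 56.2 and 53.0 CPM. Ifngr1 was 1.81-fold lower (1.74 to 1.89) in stiff than in soft.

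Of 18 measured nucleic acid sensing genes, Tmem173, the gene for the adaptor STING, was at least 2-fold higher with A83-01 on both matrices and 0 were lower. Of all genes, 7.94% were higher and 4.6% lower with it on stiff matrix, and 2.33% and 2.57% on soft matrix. In the stiff against soft pair 4 of these genes were lower, Ikbke, Tlr7, Tlr8 and Tmem173, and 0 higher, against 8.8% and 5.46% of all genes. The kinase gene Ikbke was also lower for stiffness by edgeR's additive model, as were 3.29% of all genes. Of 14 negative regulators, Nlrc5 and Rnf125 were at least 2-fold higher and 0 lower with A83-01 on stiff matrix, against the same 7.94% and 4.6% of all genes. Nlrc5, also known as an activator of class I antigen presentation genes, was at least 2-fold lower in stiff than in soft, as was Ptprc.

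A wider list of interferon-induced genes outside the members also stood higher with A83-01 on stiff matrix. Of 60 measured, 20 were at least 2-fold higher and 0 lower with A83-01 on stiff matrix, with a median log2 ratio of 0.63. Of all genes, 7.94% were higher and 4.6% lower. Among the genes counted higher, at least Tnfsf10 and Cxcl9 reached the minimum in stiff with A83-01 alone, so they had to be high there. On soft matrix 3 of 60 were higher, Apol3, Apol9a and Cxcl10, against 2.33% of all genes. In the stiff against soft pair 1 was higher and 10 were lower, against 5.46% and 8.8% of all genes, and 43 of the 60 were lowest in the stiff library, against 31.5%. The death ligand gene Tnfsf10 had 0, 5, 4 and 143 counts, a 29.2-fold (11.1 to 108) ratio with A83-01 on stiff matrix. The galectin gene Lgals9 had 215, 192, 82 and 1238 counts, a 12.3-fold (9.84 to 15.6) ratio. Tnfsf10 and Lgals9 were each highest in stiff with A83-01, by far the highest of their 4 libraries.

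Chemokine genes in this list, whose products draw T cells through Cxcr3, were also highest in stiff with A83-01. Cxcl9 had 5, 14, 3 and 92 counts and Cxcl10 had 45, 116, 20 and 188 counts. Their ratios with A83-01 on stiff matrix were 25.01 (8.29 to 123) and 7.67 (4.82 to 12.8). Cxcl9 was measured only because it reached the minimum in stiff with A83-01. Apol3, an apolipoprotein L family gene, had 39, 82, 32 and 377 counts and a ratio of 9.61 (6.69 to 14.3).

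The schlafen genes Slfn2 and Slfn4, known in T-cell quiescence and myeloid cells, were lower on stiff than on soft matrix. Slfn2 had 2186, 3235, 584 and 2023 counts and was 3.25-fold lower (2.97 to 3.57) in stiff than in soft. With A83-01 in both it was 1.70-fold lower (1.61 to 1.80), and A83-01 on stiff matrix went with a 2.82-fold higher level (2.58 to 3.10). Slfn2 was not called for stiffness by edgeR's additive model (adjusted p = 0.0652). Slfn4 had 1095, 956, 141 and 282 counts and was 6.74-fold lower (5.65 to 8.09). Ifi27l2b went the other way with 371, 215, 895 and 918 counts. In edgeR's additive model for stiffness Ifi27l2b rose, and Slfn4 and Nampt fell, with adjusted p of 0.0206 for Ifi27l2b and 0.0212 for Slfn4. Tnfsf10 was also called higher (adjusted p = 0.0359 by edgeR), but it reached the minimum in stiff with A83-01 alone, and the stiff and soft libraries without inhibitor, at 4 and 0 counts, were not called apart.

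**Figure D4:**
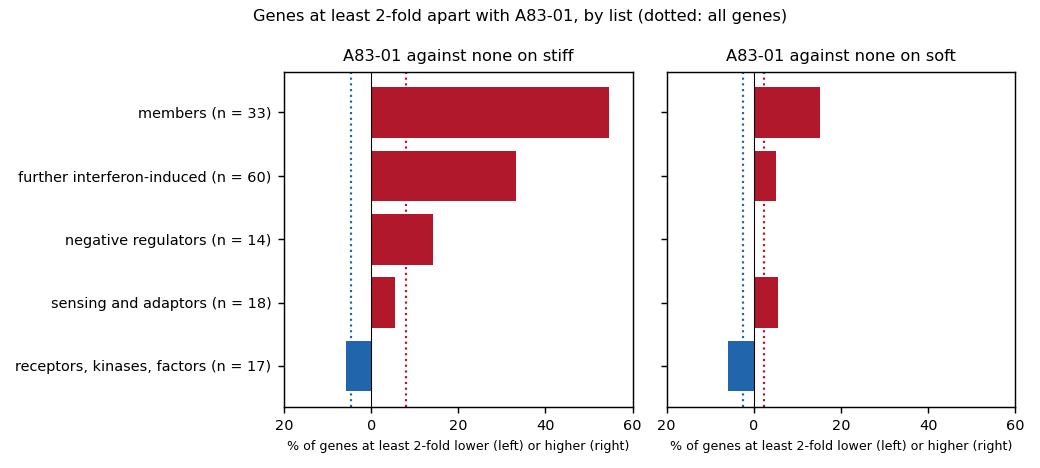
Percent of the genes of each list that reached the minimum (n at each label) at least 2-fold higher (red, to the right) or lower (blue, to the left) with A83-01 on stiff matrix (left panel) and on soft matrix (right panel), with dotted lines for all genes tested. On stiff matrix the members (18 of 33) and the further induced genes (20 of 60) have the longest bars to the right, and on soft matrix these are 5 of 33 and 3 of 60.

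Markers of other cells moved between the libraries as well. The leukocyte and macrophage list summed to 148, 199, 101 and 126 CPM. With A83-01 on stiff matrix 4 of 12 measured markers were at least 2-fold higher and 1 lower, against 7.94% and 4.6% of all genes. In the stiff against soft pair 5 markers of this list were lower and 1 higher, against 8.8% and 5.46% of all genes. Its members went opposite ways: the macrophage gene Adgre1 stood at 24.5, 37.4, 0.447 and 2.38 CPM and the class II chaperone gene Cd74 at 5.74, 10.8, 0 and 0.365 CPM, low on stiff matrix, whereas the lysozyme gene Lyz2 stood at 1.58, 1.01, 23.5 and 6.09 CPM. Cd3e was at 0 in all 4 libraries. Among plasmacytoid dendritic cell markers, which mark a main source of type I interferon, Siglech and Ccr9 were at 0 in all 4 libraries. This list, which holds the member Bst2, summed to 110, 96.3, 118 and 122 CPM. Most of the sum was Tcf4, at 50.3, 58.6, 53.3 and 71.8 CPM, and Runx2, at 40.5, 19.2, 50.2 and 12.5 CPM. Tlr7 stood at 2.06, 1.73, 0.516 and 0.842 CPM and Irf8 at 2.96, 1.37, 1.72 and 2.05 CPM. With A83-01 on stiff matrix 1 of the 5 measured was higher and 1 lower. Endothelial markers summed to 2213, 2173, 1813 and 2867 CPM with 2 of 10 higher and 0 lower with A83-01 on stiff matrix. Vwf, at 126, 48.0, 31.2 and 18.6 CPM, and Plvap, at 61.6, 53.1, 31.1 and 21.9 CPM, went against this sum. Pericyte and mural markers summed to 4027, 5574, 4492 and 5850 CPM, with 3 of 9 higher and 0 lower with A83-01 on stiff matrix. In this list Anpep stood at 1414, 3507, 867 and 1386 CPM and Pdgfrb at 1239, 881, 1591 and 1470 CPM. Fibroblast markers summed to 69146, 48784, 125055 and 42065 CPM. With A83-01 on stiff matrix 2 of these 8 were higher and 2 lower. In the stiff library Col1a1, at 69475 CPM, and Col3a1, at 52984 CPM, made up most of this sum. Dcn, at 11520, 21955, 1442 and 5279 CPM, and Pdgfra, at 1054, 931, 198 and 241 CPM, were instead lowest in stiff. The part of these shifts in the members' levels was not tested.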

How the data were processed

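RNA of 4 libraries, 1 per group, was extracted with Trizol, selected with oligo(dT) and sequenced as read pairs (DNBSEQ-T7), per the labels' protocols. The deposited count table holds whole-number read counts per gene made by the authors, not normalised. The deposited FPKM table scales them by length and library size and was used for levels between genes and as an alternative. Per the submitters' processing notes, HISAT2, edgeR and the build Rnor_6.0 were used. The counter, annotation and versions were not given in the sources used here.

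Software was edgeR 4.0.16, DESeq2 1.42.0 and limma 3.58.1 under R 4.3.3, with pandas 2.3.3 and matplotlib 3.10.9 in Python 3.11.15. The 13634 genes that reached 1 CPM, scaled by TMM, in any library were tested. Library pairs were compared by CPM ratio with a Clopper-Pearson interval and no test. The difference of both inhibitor responses has a counting interval by the delta method. An additive model of both factors was fitted to all these genes with the quasi-likelihood functions of edgeR, whose common dispersion was 0.0351, with Benjamini-Hochberg adjustment over all of them. The scripts were tested on simulated data. Nothing says whether the libraries came from separate animals, so a p-value reflects only how these libraries vary, which may be technical.

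The members and lists were chosen with earlier results of these data known. Full values are given for members at least 2-fold apart in a pair or called by the model, the receptors and the transcription factors. From the other lists the signalling core is given, except for 1 gene that is not reported here, with the 8 called genes of the largest fold by the nearer interval bound. Isg15, Ifitm3, Trim25 and others outside this rule were named after their values were seen. Members were sorted into roles after their values were seen. Promoters are from RefSeq GRCr8, which differs from the authors' build, and were used for sequence and neighbouring genes. Alternatives covered scaling, minimum, prior count, FPKM, other tools and leaving out each library.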

Additional observations from a re-analysis of the deposited data

Results flagged for a closer look

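Irf1 had inhibitor responses of opposite sign on the matrices. Its level was 1.53-fold higher with A83-01 on stiff and 1.19-fold lower with it on soft matrix, and the log2 responses differed by 0.86 (0.69 to 1.04, counting error only). With 1 library in each group the difference between matrices was not tested.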

How the results depend on the processing

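No paired analysis was possible because each group has 1 library, so the groups share fewer than 2 replicate numbers. No called value and no median turned its direction under the alternatives run. With scaling by total counts the members' median log2 ratio was -0.63 for stiff against soft and 1.32 for A83-01 on stiff matrix, and with log2 of FPKM plus 0.1 -0.63 and 1.29. A minimum of 5 CPM left 23 members. Of these, 3 were at least 2-fold lower and 0 higher in stiff against soft, where 6.48% of all genes were lower and 4.35% higher. With A83-01, 10 were higher on stiff matrix (median 0.63) and 2 on soft matrix, against 6.15% and 1.59% of all genes. The response was larger on stiff matrix for 5, against 4.48% of all genes. FPKM values left 3 members higher for A83-01 on soft matrix, against 1.95% of all genes. A minimum on the mean of the libraries, added after seeing the data, left 3 there, against 1.94%, and a median of 0.90 on stiff matrix. Fewer genes were tested under either minimum. In the additive model, members called lower for stiffness were 2 by DESeq2, 2 by limma-voom, 3 with total counts, 2 without a minimum (5.41%, 4.56%, 8.32% and 3.12% of all genes) and 0 with the inhibitor left out of the model, and 0 to 0 when each library was left out, which leaves 1 library in an arm assumed to vary like the others. For A83-01, members called higher were 2 by DESeq2 and 6 with total counts (1.61% and 4.12% of all genes). The cause was not tested. Low counts limit Oas1a, Ifi44l, Mx2 and Cmpk2.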
